A study of Mus musculus with 4 samples.

Results

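Of the 17886 HNF4A peaks of the water library, 2683 were still covered by a peak in the library from dextran sulfate sodium (DSS) but stood much lower in the ranking of that library. They are called falling peaks here and were chosen by the peak scores of both HNF4A lists, so these scores and ranks describe them and test nothing. A falling peak had a water score below 20.79507, shared at least 1 bp with a DSS peak, lay off the mitochondrial chromosome, and had a rank percentile in the DSS list at least 20 points below its rank percentile in the water list, where 100 is the highest score of a list. They made up 15.0% of all water peaks and 34.8% of the 7714 shared peaks that met the same limit on score. The other shared peaks under that limit were 3856 level peaks, whose percentile changed by less than 20 points, and 1175 rising peaks (15.2% of the 7714). Another 8379 water peaks under the limit had no DSS peak and are called water only.

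The samples were scrapings of the colonic lining of adult mice aged 2 to 4 months, and no mouse strain, allele or sex is given in the sources used here. Mice of the DSS groups received 3% DSS for 6 days, and mice of the water groups had no DSS. DSS is a chemical that injures the lining of the colon and causes colitis. Chromatin immunoprecipitation with sequencing was run for HNF4A and for H3K27ac, with 1 library for each antibody and treatment, so none of the differences below has a replicate check and no p-value is given. The number of animals behind a library is not given in the sources used here. Inflammation also changes which cells a scraping holds, and less binding per cell and fewer cells with binding cannot be told apart in such samples. The share of epithelial cells in each sample was not tested, because no gene table of the build of the peak lists was used.

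HNF4A, a member of the nuclear receptor family, binds DNA constitutively as a homodimer, at paired copies of a hexamer spaced by a single base. In the intestine it maintains the programme of differentiated absorptive cells, including genes of lipid metabolism, transport and the brush border. H3K27ac, the acetylation of lysine 27 on histone H3, marks active enhancers and promoters, and HNF4A sites in intestinal cells are often enhancers. A site that keeps a peak but loses rank is one where HNF4A was still found in the DSS sample at a lower place among the sites of that list.

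The DSS list was the shorter one, with 10688 peaks, and what kind of score the lists hold is not stated. A percentile is a place within 1 list, and lists of unequal length have different bottoms, so a lower percentile in DSS does not by itself show less HNF4A on the DNA. Shared peaks as a class already sat lower in the DSS list. Over all 7714 shared peaks below the score limit, the median percentile was 62.0 in water and 49.2 in DSS, and the median change was -8.34 points. When the water list was held to its 10688 strongest peaks, 1157 peaks fell by 20 points or more and 1555 rose. When percentiles were computed among shared peaks only, 1668 fell and 1958 rose. The excess of falling over rising peaks was therefore not kept under either of these rankings. All 1157 and all 1668 of the peaks that fell under them were also falling peaks of the first ranking. For the 1157 this holds by construction, since cutting the water list from below can only lower a water percentile.

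In water the falling peaks were of middle to upper rank. Their median water percentile was 70.8, with quartiles of 57.6 and 80.5 and a range from 22.1 to 89.998. In DSS their median percentile was 26.5, with quartiles of 12.7 and 41.6 and a range from 0.0094 to 68.8. The upper ends of both ranges follow from the limits on score and fall. Below percentile 10 of the DSS list lay 527 of them (19.6%), and 2293 (85.5%) lay below the midpoint of that list.

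The median fall was 36.8 points, and small falls were the most common. Between 20 and 30 points lay 858 peaks (32.0%), between 30 and 40 points 665, and between 40 and 50 points 539. Falls of 50 to 60 points were seen at 327 peaks, of 60 to 70 at 189, of 70 to 80 at 91, and of over 80 at 14. The number of peaks dropped steadily with the size of the fall and had no second mode in steps of 10 points. A drop of this kind follows in part from the rule. Large falls need a high water percentile, and the score limit caps that percentile.

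**Figure D1:**
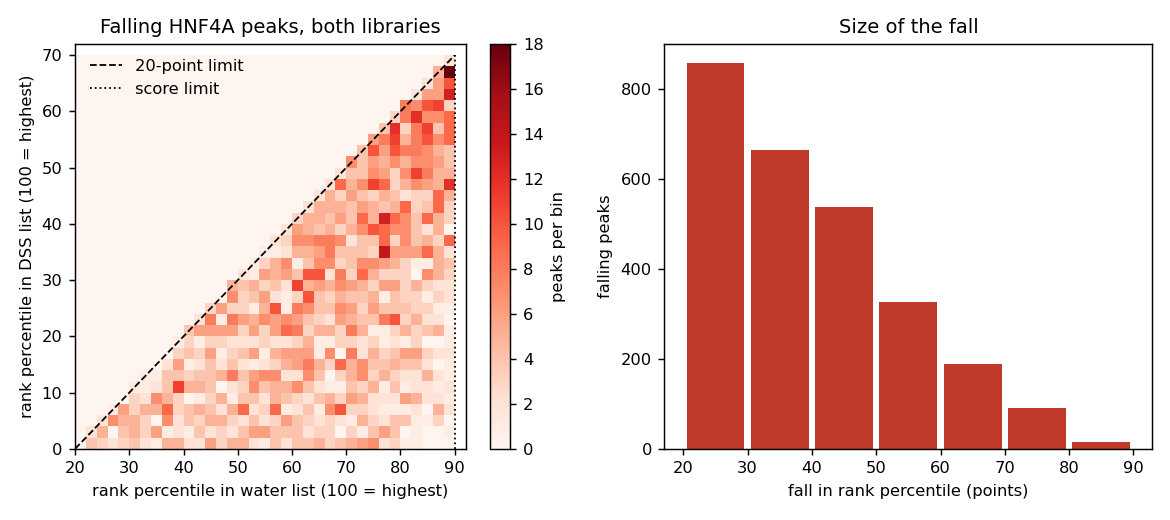
Left, rank percentile of the 2683 falling peaks in the water list (x axis) and in the DSS list (y axis), coloured by peaks per bin of 2 by 2 points, with the limits of the rule as lines; right, number of falling peaks (y axis) by fall in percentile points (x axis), in steps of 10 points. The peaks fill the area under the 20-point line without a separate cluster, and the count drops from 858 peaks at 20 to 30 points to 14 at over 80 points.

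Peaks at the edge of the rule differed little across it. The falling peaks nearest to the 20-point limit had falls of 20.03, 20.05 and 20.07 points, on chromosomes 18, 17 and 11. On the other side of the limit, 3 peaks on chromosome 6 with falls of 19.998, 19.97 and 19.96 points were counted as level. At the score limit, the falling peak of highest water score ranked 1790 in water and 3820 in DSS. The 3 nearest shared peaks above the limit ranked 1785, 1777 and 1776 in water and 5021, 5049 and 7052 in DSS, so peaks with equally large falls lay on both sides of it. Above the limit, 359 of 1749 shared peaks (20.5%) fell by 20 points or more.

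The largest falls took peaks from the upper end of the water list to the bottom of the DSS list. The largest was at chr3:94717542-94718141 (mm9), which ranked 1808 in water, at percentile 89.9, and 10328 of 10688 in DSS, at percentile 3.34. The peak centres of the libraries were 116 bp apart there. This peak lay on a region of the authors' list of lower H3K27ac in DSS (94717786 to 94718266), which held 453 nucleosome tags in water and 243 in DSS. Scaled by library totals, this is 1.90-fold more in water (95% interval 1.62 to 2.23, counting error only).

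The next falls were of nearly the same size. The peak at chr5:35917475-35918074 fell from rank 1986 to rank 10027, a drop of 82.8 points, with its DSS centre 8 bp away. At chr11:57309818-57310417 the ranks were 1853 and 9896, and no other water peak lay within 50 kb. The peak at chr3:142011678-142012277 moved from rank 2451 to rank 10238. All of these were single DSS peaks close to the water centre, so the low DSS rank belongs to the same site.

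A peak on chromosome 2 (33555740 to 33556339) went against the H3K27ac of its surroundings. It dropped from rank 2428 to rank 10195, by 81.8 points, yet it lay on a region listed by the authors as more acetylated in DSS (33556091 to 33556556), with 104 nucleosome tags in water and 179 in DSS, 1.69-fold more in DSS (1.32 to 2.17). The lowest DSS percentile among the 10 largest falls, 0.42, was at chr5:65548862-65549461, which ranked 3175 in water and 10644 in DSS. The remaining falls of these 10 were at chr10:24838684-24839283, chr10:127099281-127099880, chr5:64355688-64356287 and chr19:55872181-55872780, with drops of 81.6, 81.5, 81.0 and 80.9 points. Of the 10 peaks, that on chromosome 10 at 24838684 alone had 2 DSS partners, and 8 lay on no region of either H3K27ac list.

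The falling peaks of highest water score had smaller falls. At chr5:64922489-64923088 the percentile went from 89.998 to 64.2, a fall of 25.8 points. The peaks at chr4:138644788-138645387 and chr14:12335575-12336174 shared rank 1791 in water and took ranks 5293 and 4756 in DSS. A peak on chromosome 18 moved from rank 1794 to rank 3738, and the peak at chr7:53990158-53990757 from rank 1802 to rank 5697. None of these 5 lay on a listed H3K27ac region.

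Among all water peaks below the score limit, the share that fell rose with water rank. Among shared peaks it was highest between percentiles 70 and 80, and above the score limit it was 20.5%. Of water peaks between percentiles 20 and 30, 44 of 1756 fell (2.51%), which is 7.86% of the 560 that were shared (Wilson interval 5.90 to 10.4). Between percentiles 40 and 50, 233 of 1794 fell (13.0%), or 31.1% of those shared (27.9 to 34.5). Between percentiles 70 and 80, 688 of 1789 fell (38.5%), or 49.9% of those shared (47.3 to 52.6). Between 80 and 90, 705 of 1787 fell (39.5%), or 44.4% of those shared (42.0 to 46.9). This pattern is bounded by the rule, since a peak below percentile 20 cannot fall by 20 points. A water peak without a DSS peak has no DSS rank and cannot be counted as falling.

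At lower ranks absence was far more common, and rising peaks were more common too. Between percentiles 20 and 30, 68.1% of water peaks had no DSS peak, and between 80 and 90 this share was 11.2%. Rising peaks were 12.6% and 0% of water peaks in these bins, and no peak above percentile 80 can rise by 20 points. Falling peaks of lower water rank also ended nearer to the bottom of the DSS list. Their median DSS percentile was 3.46 for water percentiles 20 to 30, 13.5 for 40 to 50, 33.2 for 70 to 80 and 46.4 for 80 to 90. The rule largely sets this order, since a falling peak must end at least 20 points below its water percentile.

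**Figure D2:**
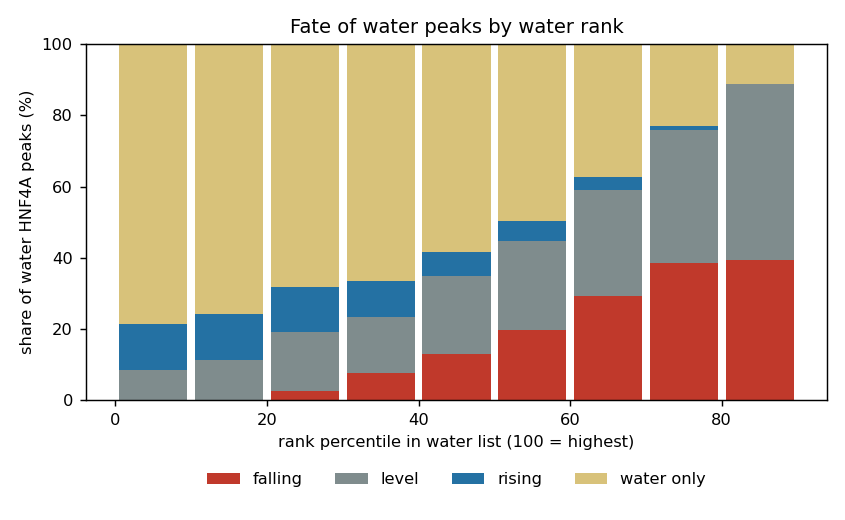
Share of water HNF4A peaks below the score limit (y axis, percent) that were falling, level, rising or water only, in bins of 10 points of water percentile (x axis, 100 is the highest). Falling peaks went from 2.51% of peaks at percentiles 20 to 30 to 39.5% at 80 to 90, while water-only peaks went from 68.1% to 11.2%.

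The position of a falling peak was nearly the same in both libraries. The centres of the water and DSS peaks were 33 bp apart at the median (quartiles 15 and 62), and 2366 of 2683 (88.2%) were within 100 bp. Level peaks had a median offset of 31 bp, and rising peaks of 65 bp with an upper quartile of 234 bp. The median overlap of a falling peak with its DSS peak was 567 bp of the 600 bp that every peak spans.

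Most falling peaks were a simple match of 1 peak in each list. That was so for 2203 of them (82.1%), which had 1 DSS partner that no other water peak overlapped. Another 172 overlapped 2 or 3 DSS peaks. If the strongest of these is taken in place of the one with most overlap, 103 of the 172 still fell by 20 points and 69 did not. The DSS peak itself overlapped a stronger DSS peak at 110 falling peaks (4.10%), against 2.07% of level and 1.62% of rising peaks. The rule picks falling peaks for a low DSS rank, so this order follows in part from it.

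Crowding of peaks in the water list touched the falling peaks less than the rising ones. A stronger water peak overlapped 117 falling peaks (4.36%), 373 level peaks (9.67%) and 476 rising peaks (40.5%). The DSS partner was shared with another water peak at 321 falling peaks (11.96%), 629 level peaks (16.3%) and 505 rising peaks (43.0%). Falling peaks are stronger in water by construction, so a difference in this direction follows in part from the rule.

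Falling peaks were spread over every autosome and the X chromosome. They made up between 30.6% of shared peaks on chromosome 18 and 38.6% on chromosome 14, and on all 20 chromosomes the interval of the share held the overall value of 34.8%. On the X chromosome 35 of 106 shared peaks fell (33.0%, 24.8 to 42.4). Crowded windows of 100 kb with 10 or more water peaks held 55 falling peaks (2.05%), 2.07% of level peaks and 2.04% of rising peaks.

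Falling peaks took a similar share of the neighbours of falling, level and rising peaks. A separate water peak within 10 kb, not overlapping, was found for 1148 falling peaks (42.8%). This nearest neighbour was itself falling in 176 cases, level in 279, rising in 57, water only in 516 and a shared peak above the score limit in 119. Among the 512 neighbours that were shared and below the score limit, 34.4% were falling (30.4 to 38.6). The same share was 37.0% (33.6 to 40.5) for neighbours of level peaks and 30.7% (24.8 to 37.2) for neighbours of rising peaks, and each of these intervals holds the overall share of 34.8%. These values come from the ranking that chose the peaks and are a description.

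**Figure D3:**
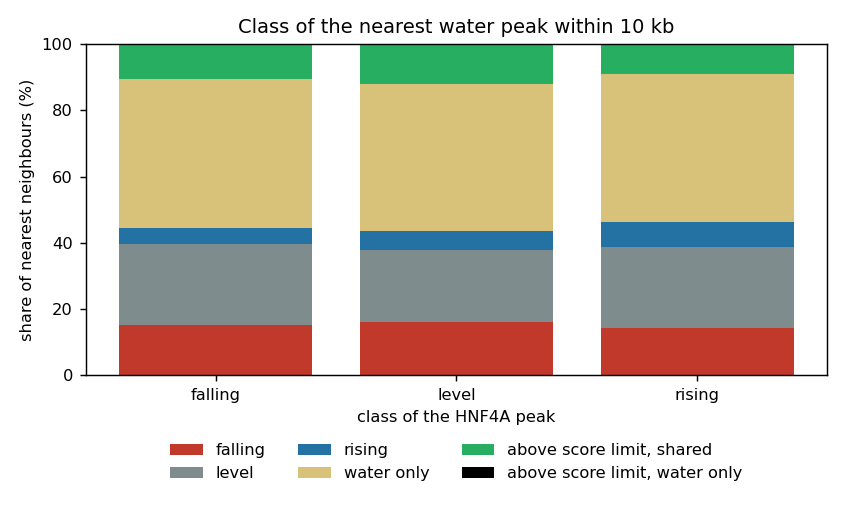
Class of the nearest non-overlapping water HNF4A peak within 10 kb (y axis, percent of neighbours) for falling, level and rising peaks (x axis). Falling peaks took 15.3% of the neighbours of falling peaks, 16.1% of those of level peaks and 14.2% of those of rising peaks, and water-only peaks took 44.9%, 44.2% and 44.4%.

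Other surroundings were also alike. A peak above the score limit lay within 10 kb of 188 falling peaks (7.01%, 6.10 to 8.04) and of 7.75% of level peaks (6.95 to 8.64). A DSS peak with no water partner lay within 10 kb of 134 falling peaks (4.99%, 4.23 to 5.88) and of 5.42% of level peaks (4.75 to 6.18). The median number of other water peaks within 50 kb was 2 for both.

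Linked at gaps of up to 50 kb, 1801 falling peaks (67.1%) stood alone and 596 stood in pairs. Another falling peak within 50 kb was found for 882 (32.9%, 31.1 to 34.7). Level peaks, of which there are more, had another of their class that near in 45.7% of cases (44.1 to 47.3), and rising peaks, of which there are fewer, in 24.8% (22.4 to 27.3). These shares follow the order of class size.

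A few loci held several falling peaks close together. The largest group held 6 falling peaks over 84.9 kb of chromosome 15 (36828777 to 36913668), with 5 DSS peaks between them. The span held 9 water peaks, of which 2 of the others were water only, 1 lay above the score limit without a DSS peak, 0 were level and 0 were rising. The strongest of the 6, at 36863038 to 36863637, went from percentile 85.6 to 59.2 and lay on a region with 562 nucleosome tags of H3K27ac in water and 349 in DSS. This peak and the one at 36828777 to 36829376 each overlapped 2 DSS peaks, of which the one with most overlap was used. The span also held a region with more H3K27ac in DSS (36831416 to 36831961), with 34 tags in water and 88 in DSS, which no falling peak overlapped. The peak at 36913069 to 36913668 fell furthest, from percentile 72.9 to 15.4. The pair at 36890035 and 36890354 overlap each other and share a DSS peak at percentile 22.1.

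The next groups had 5 falling peaks each. On chromosome 3 (95417766 to 95506454) all 8 water peaks were either falling or, in 3 cases, water only. Their strongest peak, at 95505855 to 95506454, went from percentile 89.5 to 37.3, and the peak at 95466066 to 95466665 from 80.2 to 19.1. On chromosome 17 (87900379 to 88010859) the group lay among 10 water peaks, with 1 level, 1 rising and 2 water-only peaks and 1 above the score limit. There the peak at 87966186 to 87966785 fell from percentile 84.6 to 12.2, and that at 87900379 to 87900978 from 86.8 to 16.9. These falls came to 72.5 and 69.9 points, and a rising peak was the nearest neighbour of the former. Each of these groups was picked for its number of falling peaks.

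H3K27ac was measured in separate libraries that the choice of falling peaks did not use. The authors deposited 1000 regions with less and 1000 with more H3K27ac in DSS, all at least 2 kb from an unnamed feature, and they chose both lists on the tag counts of these libraries. The libraries held 10143920 tags in water and 10329416 in DSS. The list of regions with more H3K27ac in DSS has 10 regions on the Y chromosome and the other list has 0, so the H3K27ac samples may differ in sex, which was not tested. No HNF4A peak lay on the Y chromosome, and with autosomes alone the shares below were 2.76% and 1.21%.

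Few falling peaks lay on a region of differing H3K27ac, and the share was close to that of all water peaks. On a region with less H3K27ac in DSS lay 73 of 2683 falling peaks (2.72%, Wilson interval 2.17 to 3.41), against 2.40% of all 16093 water peaks below the score limit. On a region with more H3K27ac in DSS lay 32 (1.19%, 0.846 to 1.68), against 1.16% of all. Both lists were touched by 3 falling peaks, and 2581 (96.2%) lay on neither. Regions off both lists have no deposited tag counts, so their H3K27ac is unknown here.

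No difference between falling and level peaks in their overlap with changed H3K27ac was resolved at these counts. Among level peaks 123 of 3856 (3.19%, 2.68 to 3.79) lay on a region with less H3K27ac in DSS, and the falling peaks differed from them by -0.47 points (Newcombe interval -1.29 to 0.39). Among rising peaks the share was 3.49% (2.58 to 4.70), a difference of -0.77 points (-2.10 to 0.37). Water-only peaks were lower, at 1.79% (1.53 to 2.10), with a difference of 0.93 points (0.30 to 1.67). For regions with more H3K27ac in DSS, falling peaks differed from level peaks by -0.16 points (-0.70 to 0.43), from rising peaks by -0.25 points (-1.18 to 0.47) and from water-only peaks by 0.17 points (-0.25 to 0.69). These intervals cover counting error only and treat overlapping peaks as separate.

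**Figure D4:**
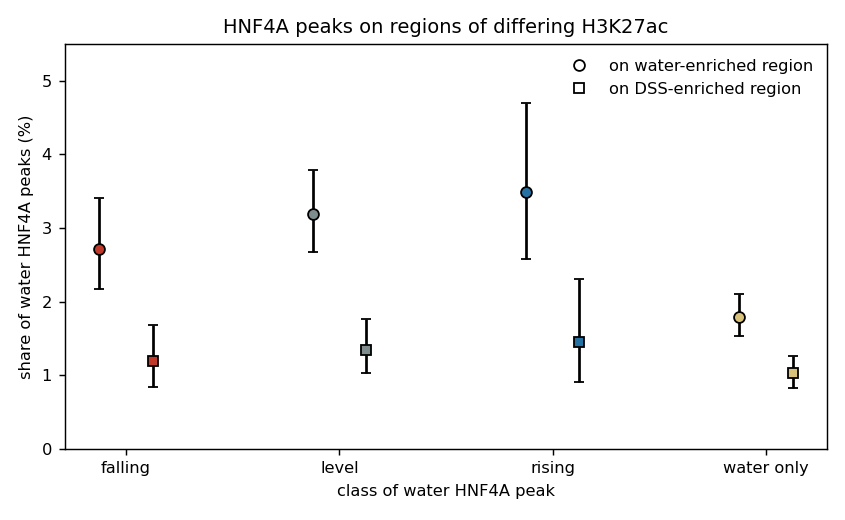
Share of water HNF4A peaks (y axis, percent) on regions with less (circles) or more (squares) H3K27ac in DSS, for the 4 classes of water peak (x axis), with Wilson 95% intervals. The falling peaks, at 2.72% and 1.19%, overlap the intervals of level and rising peaks in both lists, and water-only peaks are lowest, at 1.79% and 1.03%.

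Classes were also set side by side at like water rank, since occupancy differs with rank. Between water percentiles 80 and 90, 22 of 705 falling peaks (3.12%, 2.07 to 4.68) and 42 of 882 level peaks (4.76%, 3.54 to 6.37) lay on regions with less H3K27ac in DSS. Between 60 and 80 the shares were 2.39% (1.67 to 3.42) and 2.99% (2.17 to 4.11), between 40 and 60 they were 3.41% (2.22 to 5.21) and 2.85% (1.93 to 4.21), and between 20 and 40 they were 1.10% (0.304 to 3.94) and 1.92% (1.07 to 3.40). Falling peaks were lower in 3 of the 4 bands, and the intervals overlapped in each. For regions with more H3K27ac in DSS, the shares of falling and level peaks were 1.13% and 1.47% between 80 and 90, 1.16% and 1.495% between 60 and 80, 1.02% and 1.43% between 40 and 60, and 2.21% and 1.22% between 20 and 40, again with overlapping intervals. With each 10-point bin of water percentile weighted by its falling peaks, level peaks would have a share of 3.30% and water-only peaks of 2.10%. On regions with less H3K27ac in DSS, the gap to water-only peaks was smaller at like rank, and no interval was computed for it. Its direction differed between bands. Water-only peaks were above falling peaks between 20 and 40, at 1.81%, and between 60 and 80, at 2.97%. They were below falling peaks between 40 and 60, at 1.60%, and between 80 and 90, at 1%.

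The size of the fall showed no steady relation with H3K27ac either. Regions with less H3K27ac in DSS held 2.23% of peaks that fell by 20 to 40 points (1.60 to 3.10), 3.58% of those that fell by 40 to 60 (2.53 to 5.04) and 2.72% of those that fell further (1.39 to 5.28). Across the 237 shared peaks on such regions, Spearman's rho between the change in percentile and the log2 ratio of H3K27ac was -0.09, and across the 73 falling ones it was -0.05. On regions with more H3K27ac in DSS it was -0.09 across 101 peaks and -0.03 across 32. These correlations are across sites of the same libraries, some of them on the same region, and describe the lists only. Each list was chosen for 1 direction of H3K27ac change, and falling peaks hold no fall under 20 points. A relation over wider ranges could therefore not be seen here.

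The regions with less H3K27ac in DSS were similar under falling and level peaks. The 73 regions with less H3K27ac in DSS held 319 nucleosome tags in water at the median and 206 in DSS, with counts from 85 to 1209 in water and from 38 to 639 in DSS. Their median log2 ratio of DSS to water was -0.75 (quartiles -0.97 and -0.63). Under level peaks the medians were 329.5 and 193 tags with a median log2 ratio of -0.80, and under rising peaks 350 and 199 tags with -0.89. Over all 1000 regions of that list the medians were 265.5 and 137.5 tags and the median log2 ratio was -0.91. A more than 2-fold difference was found in 16 of the 73 regions (21.9%), in 26 of the 118 regions under level peaks (22.0%) and in 40.1% of the whole list. The shares under falling and level peaks were similar, and both were lower than that of the whole list, which the authors chose on these counts.

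On the other list, 30 regions carried the 32 falling peaks, with a median of 68 tags on nucleosomes in water and 131.5 in DSS. Their log2 ratios of DSS to water had a median of 1.02, with 0.72 and 1.51 as quartiles. The whole list had medians of 38 and 106 tags and a median log2 ratio of 1.41. A more than 2-fold gain was found in 16 of the 30 (53.3%), in 22 of the 50 regions under level peaks (44.0%) and in 71.5% of the whole list. In 1 of the 30, nucleosome tags were near equal, at 379 in water and 366 in DSS. The linker between its nucleosomes held 285 tags in water and 151 in DSS, and the authors' score subtracts linker from nucleosome signal.

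**Figure D5:**
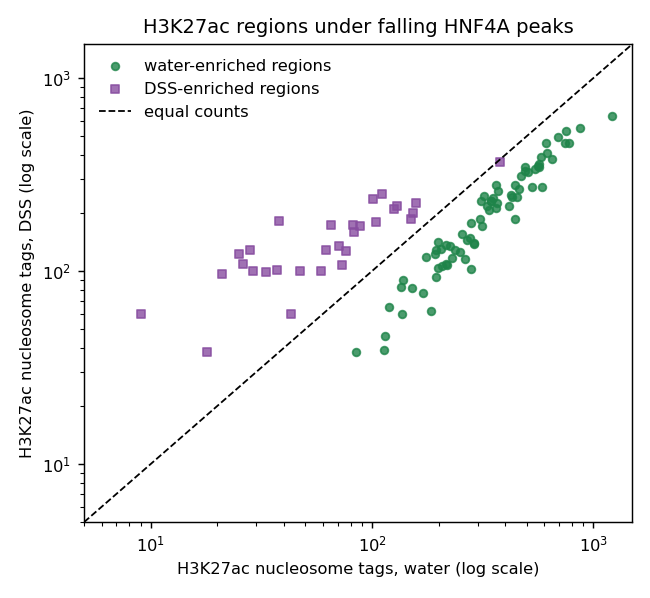
H3K27ac nucleosome tags in water (x axis, log scale) and DSS (y axis, log scale) of the regions under falling HNF4A peaks, 73 from the list with less (circles, water-enriched) and 30 from the list with more H3K27ac in DSS (squares, DSS-enriched). The circles lie at 85 to 1209 tags in water and the squares at 9 to 379, and 1 square, at 379 tags in water and 366 in DSS, lies just below the line of equal counts.

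At some sites HNF4A rank and H3K27ac were both lower in DSS. The falling peak at chr1:138889729-138890328 went from percentile 74.2 to 0.85, and its region (138889721 to 138890286) held 279 nucleosome tags in water and 103 in DSS, 2.76-fold more in water (2.19 to 3.49). The peak at chr7:108252200-108252799 went from percentile 89.0 to 36.5, on a region with 583 and 271 tags, 2.19-fold more in water (1.89 to 2.54). At chr8:4474737-4475336 the percentile went from 53.9 to 3.85 and the tags from 547 to 338, 1.65-fold more in water (1.44 to 1.89). These were among the regions of highest absolute score under falling peaks, and their falls in HNF4A rank lay above the median of all falling peaks.

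Other regions with a comparable loss of H3K27ac had mostly smaller falls in HNF4A rank. The region of highest absolute score (chromosome 3, 122590761 to 122591286) held 1209 nucleosome tags in water and 639 in DSS, and its peak at 122590443 to 122591042 fell from percentile 33.3 to 8.12. At chr1:186105547-186106146 the tags were 526 and 273 and the percentiles 64.8 and 42.3. At chr4:148159122-148159721 the tags were 442 and 186, 2.42-fold more in water (2.03 to 2.89), and the percentiles 70.1 and 49.5. The last of these fell by 20.7 points, just inside the limit. The peak at chr11:118271132-118271731, on a region with 653 and 380 tags, fell from percentile 81.1 to 41.0, and a peak on chromosome 18, on a region with 778 and 461 tags, fell by 30.5 points.

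At further sites HNF4A lost rank where H3K27ac was higher in DSS. The falling peak at chr5:64147039-64147638 went from percentile 64.5 to 3.81, and its region (64147096 to 64147616) held 21 nucleosome tags in water and 97 in DSS, 4.54-fold more in DSS (2.81 to 7.66). At chr1:193617762-193618361 the percentiles were 69.5 and 34.9 and the tags 38 and 181, 4.68-fold more in DSS (3.28 to 6.82). That peak overlapped 2 DSS peaks, and its DSS percentile is that of the one with most overlap. At chr2:27559395-27559994 the percentiles were 77.7 and 24.7 and the tags 26 and 109, 4.12-fold more in DSS (2.66 to 6.58). HNF4A rank and H3K27ac thus moved in opposite directions at these regions, whose water counts were low.

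Of the other falling peaks on regions of high score in that list, a pair on chromosome 3 (28484553 to 28485152 and 28484856 to 28485455) overlap each other, share a DSS peak at percentile 2.02 and lie on a region with 25 tags in water and 122 in DSS. They are 1 site. The peak at chr16:34908845-34909444 fell by 29.9 points on a region with 37 and 101 tags, and that at chr13:117407646-117408245 by 46.6 points on a region with 111 and 252 tags. The peak at chr10:88946329-88946928 fell from percentile 49.9 to 3.57 and touched regions of both lists, with 158 and 224 tags in one and 311 and 230 in the other. It thus lay between neighbouring stretches of opposite change in nucleosome tags. In the stretch with 158 and 224 nucleosome tags, the linker held 156 tags in water and 88 in DSS. The listed gain there therefore rests in part on fewer linker tags.

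The largest clusters of regions that differ in H3K27ac held too few HNF4A peaks to set their falling share apart from the 15.0% of all water peaks. The cluster with less H3K27ac in DSS on chromosome 4 (55616481 to 55731861), in the neighbourhood of Klf4, which encodes a transcription factor of differentiating epithelium, held 10 water HNF4A peaks, of which 0 were falling, 4 were level and 2 were rising. The cluster on chromosome 6 (52198701 to 52248971), at the posterior HoxA genes, held 1 falling peak among 4, at 52248592 to 52249191, which went from percentile 67.7 to 43.2. The cluster with more H3K27ac in DSS on chromosome 6 (82697666 to 82727341), at Hk2, the gene of a hexokinase of glycolysis, held 2 water peaks and 0 falling ones.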

How the data were processed

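HNF4A peaks were read from 1 deposited list per library. MACS2 stands in the list names. Per the submitters' processing notes the build was mm9 and the tools were MACS2 and CASAVA 1.8.2. The deposited score of a peak has no stated kind and served only for ranks inside its own list; percentiles give ties their mean rank, and printed ranks give them the best rank of the tie. How deeply HNF4A was sequenced cannot be read from these lists. H3K27ac regions carry raw tag counts and a score, per the file headers, and the library totals were recovered from the deposited score and counts. Columns headed WT were read as water.

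Each water peak was paired with the DSS peak of most overlap (at least 1 bp). Shares have Wilson 95% intervals, differences Newcombe intervals and tag ratios exact conditional (Clopper-Pearson) intervals, all for counting error only; log2 ratios used a pseudocount of 0.5. Tools were Python, pandas, SciPy and statsmodels. The pairing was tested on simulated lists in which no peak had more than 1 partner, so several or shared partners were not tested.

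Peaks described are the 10 largest falls, the 5 highest water scores, up to 8 per H3K27ac list by absolute region score, the 3 on each side of the 20-point limit and the 3 largest groups; peaks just above the score limit, the largest H3K27ac clusters and a region of near-equal tags were added after their values were seen. The falling peaks, classes and lists were chosen with earlier results of these data known. Planned gene lists and motif searches were not run, because no genome or gene table of mm9 was used here. Locus names near H3K27ac clusters are background knowledge. Alternatives covered overlap, pairing, size of fall, list length, crowded windows and distances; the strongest partner, percentiles among shared peaks and autosomes alone were chosen after seeing the data.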

Additional observations from a re-analysis of the deposited data

How the results depend on the processing

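With equal list lengths 1157 peaks fell, and with percentiles among shared peaks only 1668 fell, against 2683; under the other settings the number stayed between 1825 and 2648. For these 2 settings, fewer peaks or another ranking enter by construction. The share on a region with less H3K27ac in DSS was 4.14% when regions within 2 kb counted (level peaks 4.54%), and the share on a region with more was 2.68% (level peaks 2.77%); the other 8 settings left each within its interval. With percentiles among shared peaks only, the falling peaks were above the level peaks on regions with less H3K27ac, at 3.18% against 2.76%, and on regions with more, at 1.38% against 1.10%, where the main values had the opposite order on both. The share with another falling peak within 50 kb was 29.5% when each DSS peak was paired once, 25.4% for falls of 30 points or more, 18.2% with equal list lengths, 24.6% with percentiles among shared peaks only, and 15.0% within 10 kb; fewer falling peaks or a shorter distance lower it by construction. The median centre offset lay between 32 and 35 bp in all 7 settings run. No paired analysis was possible because each group has 1 library. The depth of the HNF4A lists is unknown, which limits every statement on rank.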
